A study of Mus musculus with 56 samples.

Results

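The livers of night-fed mice were compared at the end of the feeding phase, zeitgeber time (ZT) 0, and at the end of the daily fast, ZT12. The comparison used 8 of the 56 libraries of the series, 4 livers at ZT0 and 4 at ZT12. All animals were C57BL/6J females aged 9 weeks, with no transgene, drug or mutation named in the design. They lived under 12 h of light and 12 h of dark, with ZT0 at lights on, and received food in the night only (nighttime-restricted feeding, NRF, the study's control regimen) for 7 days. The other groups compared here were NRF at ZT24, the same hour of the day as ZT0, and daytime-restricted feeding (DRF) at ZT0, ZT12 and ZT24, each with 4 livers. The remaining times of both regimens gave levels at other hours and entered the fit. For genes and circular RNAs, the spread behind the adjusted p-values was pooled over all 56 libraries in 14 groups, unless a fit of the compared groups only is named. The labels number the livers within a group but do not say how the animals were housed or collected, so that a p-value measures the spread between samples of this series only. Under NRF the 2 times differ at once in food, in light phase and in the phase of the clock, and these cannot be told apart within this regimen. Under DRF the fast ends at ZT0 and feeding ends at ZT12, so that food and light are paired the other way. RNA came from whole liver and, by the protocol in the labels, was depleted of ribosomal RNA, although their molecule field names polyA RNA. In such bulk tissue fewer cells of a type and less RNA per cell cannot be told apart.

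The liver anticipates and follows the daily meal. A molecular clock in each hepatocyte, in which CLOCK or NPAS2 together with BMAL1 (Arntl) activates the Per, Cry and Rev-erb (Nr1d1, Nr1d2) genes and is then held back by their products, runs beside signals from insulin, glucagon, bile acids and nutrients. After a meal the liver stores glucose as glycogen and fat, and late in a fast it releases glucose, burns fatty acids and takes up amino acids. The PAR bZIP factors (Dbp, Tef, Hlf) and their opponent NFIL3 pass clock time on to genes of drug, heme and lipid metabolism through D-box sequences, and REV-ERB and ROR proteins compete on RORE sequences, such as those of Arntl.

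Promoters of genes with opposite patterns are shown because these letters are where such factors are read. Each is 1 stretch of 300 bases from RefSeq (build GRCm38.p6, from 250 bases before to 50 bases after an annotated start), 5′ to 3′ on the strand of the gene, and capitals mark a match to CACGTG (E-box), TTANGTAA (D-box), TAGGTCA (RORE core) or TCACNCCAC (SRE) on either strand. They belong to Arntl (chr7:113207261-113207560, plus strand, the second of 2 starts), which was high at ZT0, and to Dbp (chr7:45704997-45705296, plus strand), Nr1d1 (chr11:98775328-98775627, minus strand) and Pck1 (chr2:173152823-173153122, plus strand), which were high at ZT12.
Arntl: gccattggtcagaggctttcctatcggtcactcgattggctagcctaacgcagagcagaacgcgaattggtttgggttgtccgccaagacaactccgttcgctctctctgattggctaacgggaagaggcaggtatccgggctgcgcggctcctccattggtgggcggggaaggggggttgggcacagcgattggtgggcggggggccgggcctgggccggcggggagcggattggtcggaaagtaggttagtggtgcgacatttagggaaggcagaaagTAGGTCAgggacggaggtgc
Dbp: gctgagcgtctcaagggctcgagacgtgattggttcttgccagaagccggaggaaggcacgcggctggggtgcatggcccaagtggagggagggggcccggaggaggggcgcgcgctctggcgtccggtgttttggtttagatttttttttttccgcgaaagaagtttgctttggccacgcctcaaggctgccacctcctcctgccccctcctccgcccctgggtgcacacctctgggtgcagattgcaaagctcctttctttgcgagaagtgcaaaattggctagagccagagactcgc
Nr1d1: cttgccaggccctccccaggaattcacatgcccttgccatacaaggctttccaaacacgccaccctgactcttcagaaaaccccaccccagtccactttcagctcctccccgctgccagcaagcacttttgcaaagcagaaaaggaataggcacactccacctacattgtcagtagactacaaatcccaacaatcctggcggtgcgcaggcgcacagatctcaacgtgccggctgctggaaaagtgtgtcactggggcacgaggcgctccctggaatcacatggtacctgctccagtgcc
Pck1: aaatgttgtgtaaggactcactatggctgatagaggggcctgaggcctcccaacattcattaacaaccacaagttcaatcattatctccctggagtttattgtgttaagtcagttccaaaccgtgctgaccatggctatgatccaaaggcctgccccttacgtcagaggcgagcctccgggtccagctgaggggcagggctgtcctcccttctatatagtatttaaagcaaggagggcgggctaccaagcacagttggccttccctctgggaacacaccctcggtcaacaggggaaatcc
The Arntl stretch held 1 RORE core, which began 31 bases after the start, while the windows of Dbp, Nr1d1 and Pck1, and that of the other Arntl start (chr7:113207215-113207514, not shown), held none of the 4 motifs. No match in a window says only that these letters are not in it. Of 27025 promoters, 1 per gene (the first start listed), 7.24% held the E-box, 2.34% the D-box, 2.64% the RORE core and 1.22% the SRE. For Arntl the start counted is the one not shown, so the RORE core printed above is not in these counts. Among genes that were at least 2-fold higher at ZT0 and past the test described below, 8 of 158 promoters held the RORE core, against 1 of 150 for those at least 2-fold higher at ZT12. Over all genes past the test the gap was smaller, at 46 of 1523 (3.02%) and 33 of 1784 (1.85%), beside 2.21% of the 13058 tested genes with a promoter. The E-box was in 12 and 21 of the promoters of genes with at least 2-fold differences (9.37% of tested genes), the D-box in 3 and 2, and the SRE in 1 and 4. These are counts of letters and were not tested.

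Gene levels are given as scaled counts. Whole counts were rebuilt from the values in the deposited table, and each library was brought to a common scale. They are not corrected for gene length, so they compare livers and not genes. Recovered counts summed to 376 to 485 M (mega) per library at ZT0 and 503 to 647 M at ZT12. What 1 recovered count stands for is unknown, so the error of every value is the spread between animals. Across genes, correlations between libraries lay between 0.989 and 0.993 within ZT0, 0.984 and 0.991 within ZT12, and 0.978 and 0.985 between the times. Libraries also differed in how levels ran with exon length. The length index, a library's Spearman correlation between exon length and its deviation from the mean of all libraries, was -0.321 to 0.03 at ZT0 and -0.10 to 0.12 at ZT12 (exact permutation test, two-sided, p = 0.0571, n = 4 per time, smallest possible p 0.0286). At ZT24, the same hour of the day as ZT0, the mean index was 0.181 ± 0.097. It was -0.183 ± 0.153 at ZT0 and 0.042 ± 0.098 at ZT12 (SD, n = 4), so the index did not follow the hour of the day. The difference between ZT0 and ZT12 had a Spearman correlation of -0.19 with exon length over 13731 genes, and its part in the results is covered only by a fit with this trend removed.

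Of 25269 genes tested, 2473 (9.79%) were higher at ZT0 and 2500 (9.89%) at ZT12 at an adjusted p below 0.05, 4973 genes or 19.7% in all. These calls are from limma on log2(scaled count + 1), with the spread pooled over all 56 libraries and Benjamini-Hochberg adjustment over all genes. The word "called" refers to them. The 4 livers of one time lay apart from the 4 of the other in 4414 genes (17.5%), with ZT0 above in 8.9% and ZT12 above in 8.56%. Most differences were small, with a median size of 0.43 (log2) among called genes, and 475 were called and at least 2-fold, 258 of them higher at ZT0 and 217 at ZT12. The median over all genes was 0.00. Counts in a gene list are to be read beside the 19.7% of all genes and the 26.2% of protein-coding genes that were called. Fitting only the 8 libraries called 1247 and 1226 genes, and the values as deposited, a compressed scale, called 1617 and 3574, so that the share higher at ZT0 was 31.2% there and 49.7% with scaled counts. The same contrast with ZT24 in place of ZT0 shares the ZT12 livers with it and called 2562 genes higher at ZT24 and 2995 higher at ZT12. Of the 4973 genes called with ZT0, 3263 were called with ZT24 in the same direction and 13 in the opposite direction, and the rest were not called. The ZT0 and ZT24 livers, taken at the same hour of the day, nevertheless differed from each other in 1983 genes (7.85%), 575 of them higher at ZT24 and 1408 higher at ZT0, or 537 and 863 with the length trend removed.

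**Figure D1:**
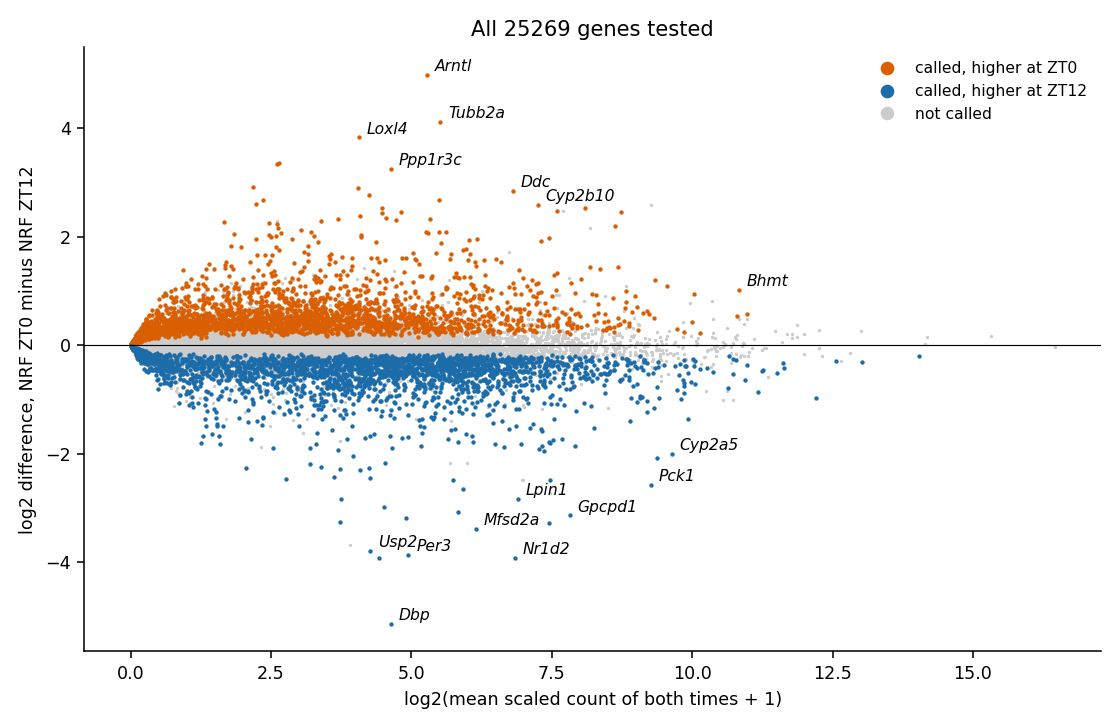
Each point is 1 of 25269 genes, with its mean level over both times on the horizontal axis, as log2(scaled count + 1), and its log2 difference between NRF ZT0 and NRF ZT12 on the vertical axis. Orange points (2473) were called higher at ZT0 and blue points (2500) higher at ZT12, with Arntl and Dbp at the ends.

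Genes of the activating arm of the clock were high at the end of feeding. Arntl (ENSMUSG00000055116, GRCm38 chr7:113207465-113314126), which encodes BMAL1, had 81.8, 71.6, 76.2 and 68.1 scaled counts in the livers at ZT0 and 1.41, 1.53, 1.07 and 1.49 at ZT12. All ZT0 livers lay far above all ZT12 livers, with a 54.1-fold ratio of means. On the log2(value + 1) scale this was the largest difference toward ZT0 among the named genes (log2 4.99 ± 0.19 (SE), adjusted p = 2.47e-24), while Npas2 and Tubb2b, which were near 0 at ZT12, had larger ratios of means (131 and 94.1). Npas2, the paralog of Clock that can partner BMAL1, had 5.84, 7.28, 7.33 and 7.52 at ZT0 and 0.0735, 0.0778, 0.0523 and 0.00950 at ZT12, 2.92 ± 0.17 (SE), adjusted p = 6.28e-18. It was nearly absent at ZT12 in these livers. Clock itself was present at both times, at 100.2 ± 17.1 at ZT0 and 30.5 ± 5.36 at ZT12 (SD, n = 4), 3.29-fold apart (log2 1.69 ± 0.15 (SE), adjusted p = 1.11e-11). Among the nuclear receptors that activate Arntl, Rora was called lower at ZT0 by a small margin (log2 -0.22 ± 0.07 (SE), adjusted p = 0.0251), with overlapping livers, and lost its call in 7 of 17 alternative settings, among them the fit of the 8 libraries alone.

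The repressors that BMAL1 and its partners activate were mostly high at the end of the fast. Of 10 genes in the lists of PER and CRY, and of REV-ERB, DEC and CHRONO repressors, 9 were higher at ZT12 and Cry1 was higher at ZT0. Per3 had 3.92, 3.12, 3.51 and 1.6 scaled counts at ZT0 and 60.8, 52.9, 62.7 and 50.1 at ZT12, with no overlap and a ratio of 18.7 (log2 -3.87 ± 0.20 (SE), adjusted p = 6.6e-20). Per1 and Per2, the other period genes, had means of 2.44 ± 1.28 at ZT0 and 22.6 ± 3.18 at ZT12 and of 15.3 ± 6.64 at ZT0 and 55.2 ± 12.4 at ZT12. Their log2 differences were -2.84 and -1.87. Nr1d2, which encodes REV-ERBβ, had 14.6, 11.8, 8.73 and 18.1 at ZT0 and 168, 198, 274 and 219 at ZT12 (log2 -3.93 ± 0.17 (SE), adjusted p = 8.78e-23). Nr1d1 (REV-ERBα) had 1.70, 3.36, 1.2 and 5.60 at ZT0 and 18.6, 31.0, 16.7 and 12.3 at ZT12, so both times were far under its NRF maximum of 83.5 ± 4.70 at ZT8. Ciart, which encodes CHRONO, was at 0.0401 ± 0.00783 at ZT0 and 2.71 ± 0.950 at ZT12, a 67.4-fold ratio. Its log2 difference of -1.80 on the log2(value + 1) scale understates that ratio, as it does for any gene near or under 1. Cry1 moved against this group, with 126, 114, 103 and 82.4 at ZT0 and 44.5, 35.1, 53.0 and 67.9 at ZT12 (log2 1.10 ± 0.20 (SE), adjusted p = 3.01e-05), whereas Cry2 was lower at ZT0 (log2 -0.69). Bhlhe40 and Bhlhe41 (DEC1 and DEC2) had log2 differences of -0.92 and -0.64.

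The PAR bZIP factors followed the repressors and NFIL3 ran opposite to them. Dbp (ENSMUSG00000059824, chr7:45705088-45710203) had 0.505, 0.410, 0.251 and 0.260 scaled counts at ZT0 and 45.7, 59.9, 40.0 and 43.6 at ZT12. The ratio of means was 133-fold, and on the log2(value + 1) scale its difference was the largest toward ZT12 among the named genes (log2 -5.14 ± 0.21 (SE), adjusted p = 5.55e-23). In the annotation, 18.0% of the exon bases of Dbp lie opposite exons of a gene on the other strand, and how strand entered the counting is not given in the sources used here. Tef was at 11.2 ± 3.30 at ZT0 and 100.5 ± 18.3 at ZT12 (log2 -3.08 ± 0.18 (SE), adjusted p = 9.73e-18), and Hlf differed by -1.12 with overlapping livers. Nfil3, the repressor that competes for the same sites, had 63.6, 70.6, 62.4 and 68.0 at ZT0 and 12.1, 12.8, 11.3 and 13.5 at ZT12 (log2 2.32 ± 0.16 (SE), adjusted p = 2.91e-15). In total 18 of 19 clock and PAR bZIP genes were called, 5 toward ZT0 and 13 toward ZT12, and 16 did not overlap between times.

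**Figure D2:**
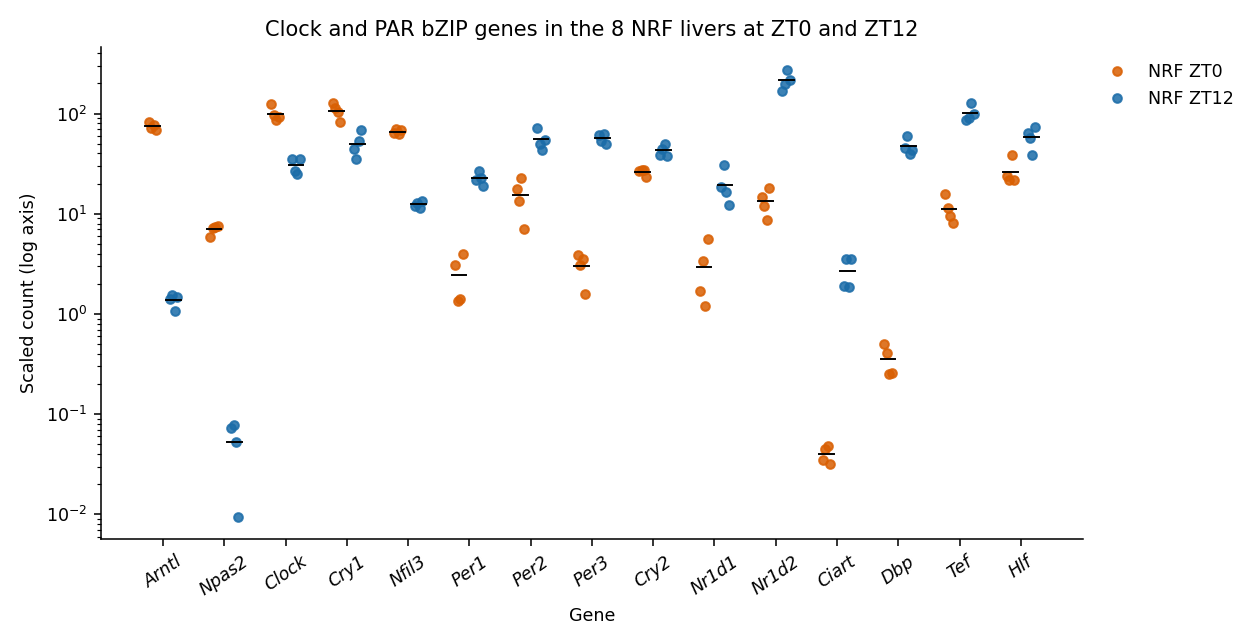
Scaled counts on a log axis for 15 clock and PAR bZIP genes, with 1 dot per liver (orange, NRF ZT0; blue, NRF ZT12) and a bar at the mean of 4. Arntl, Npas2, Clock, Cry1 and Nfil3 sit higher at ZT0, and the other 10 genes sit higher at ZT12.

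Of the 10 genes with the largest log2 differences toward ZT0, 8 lay outside the clock and had varied roles. Tubb2a, a β-tubulin, had 71.9, 84.4, 108 and 76.8 at ZT0 and 3.31, 3.75, 4.25 and 4.43 at ZT12 (log2 4.12 ± 0.17 (SE), adjusted p = 1.07e-22). Its close copy Tubb2b had 8.82, 11.2, 12.9 and 8.44 at ZT0 and was at 0 in 3 livers and at 0.440 in the other at ZT12 (log2 3.36). Reads may be split between such copies, so neither value is certain alone. Loxl4, a lysyl oxidase that crosslinks collagen and elastin, had 35.8, 29.3, 33.5 and 22.2 against 0.966, 1.58, 1.40 and 0.777 (log2 3.83 ± 0.18 (SE), adjusted p = 1.92e-21). Ppp1r3c, which targets protein phosphatase 1 to glycogen, rose from 3.77 ± 0.723 at ZT12 to 44.1 ± 3.69 at ZT0 (log2 3.25 ± 0.19 (SE), adjusted p = 4.03e-18). Ddc, which makes dopamine and serotonin, the calcium pump gene Atp2b2, the manganese exporter gene Slc30a10 and the tight junction gene Cldn1 completed the 10, which were taken among protein-coding genes with no overlap between times and a mean of at least 5. Their log2 differences were 2.85, 2.89, 2.78 and 2.68.

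Toward ZT12, the same rule gave Dbp, Nr1d2, Per3 and Tef and 6 further genes. Usp2, a deubiquitinase under clock control, had 2.49, 1.39, 1.99 and 0.746 at ZT0 and 38.9, 32.7, 35.5 and 32.8 at ZT12 (log2 -3.80 ± 0.26 (SE), adjusted p = 7.9e-16). Mfsd2a, a transporter of lysophospholipids that is known as a fasting gene, had 6.34, 12.7, 15.5 and 11.5 and 91.9, 144, 156 and 119.7 (log2 -3.40 ± 0.33 (SE), adjusted p = 3.4e-11). No liver at ZT0 came near a liver at ZT12 in either gene. Upp2, a uridine phosphorylase, was at 32.2 ± 7.55 at ZT0 and 315 ± 34.9 at ZT12, and Gpcpd1, which cleaves glycerophosphocholine, at 44.0 ± 10.9 at ZT0 and 405 ± 130.0 at ZT12. Rgs16, a regulator of G protein signalling, and Cux2, a transcription factor that is prominent in female liver, had log2 differences of -3.27 and -3.18. In the list of other rhythmic liver genes, to which several of these belong, 13 of 20 tested members were higher at ZT12 and 4 at ZT0.

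Glucose genes divided between the phases. Pck1 (ENSMUSG00000027513, chr2:173153048-173159273), the gene of the gluconeogenic enzyme PEPCK, had 207, 161, 78.9 and 312 scaled counts at ZT0 and 740.3, 1245, 1121 and 1036 at ZT12. The times did not overlap, with a 5.46-fold higher mean at the end of the fast (log2 -2.58 ± 0.36 (SE), adjusted p = 2.73e-07). In the list of gluconeogenesis and its hormonal control, 9 of 21 tested members were higher at ZT12 and 2 at ZT0, with a median of -0.39. Those higher at ZT12 included the glucose-6-phosphate transporter Slc37a4 (-1.07), the coactivator Ppargc1a (-0.96), Foxo1 (-0.85), Foxo3 (-0.95), the insulin receptor Insr (-0.71) and the C/EBPβ gene Cebpb (-1.15). G6pc, whose product makes the last step to free glucose, was not called, at 194 ± 55.4 at ZT0 and 118 ± 53.3 at ZT12 (log2 0.80, 95% interval 0.11 to 1.48, adjusted p = 0.098). Pdk4, a kinase that shuts pyruvate dehydrogenase and is usually described as a fasting gene, was higher after feeding, with 21.3, 40.0, 22.7 and 24.9 at ZT0 and 1.72, 6.49, 4.85 and 5.35 at ZT12 (log2 2.38 ± 0.33 (SE), adjusted p = 2.12e-07). Irs1, an insulin receptor substrate, was the other member called higher at ZT0 (0.64), while Irs2 was at 58.9 ± 19 at ZT0 and 40.0 ± 8.68 at ZT12 with adjusted p = 0.223. Slc2a2 (GLUT2), the glucose carrier of the hepatocyte, was higher at ZT12 (log2 -1.41 ± 0.13 (SE), adjusted p = 1.49e-11), as was Pfkfb3 (-1.31). In their list of glucose uptake, glycolysis and fructose use 4 of 17 tested members were higher at ZT12 and 2 at ZT0, or 2 and 2 without ZT12 replicate 3.

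Glycogen genes were called in both directions. Gys2, liver glycogen synthase, had 216, 279, 269 and 230.2 at ZT0 and 792, 1170.4, 1223 and 1093 at ZT12, 4.30-fold higher before the night's food (log2 -2.09 ± 0.11 (SE), adjusted p = 9.12e-19). With it, 8 of 17 tested members were higher at ZT12 and 3 at ZT0 (median -0.26). Ugp2 (-0.89), Gyg (-0.67) and Pgm1 (-0.29), which supply and prime the synthase, were also higher at ZT12. Among the subunits that bring protein phosphatase 1 to glycogen, Ppp1r3c (3.25) and Ppp1r3b (1.07) were higher at ZT0, whereas Ppp1r3g was higher at ZT12. Ppp1r3g had 0.0212, 14.2, 6.89 and 4.08 at ZT12, so 1 liver resembled the ZT0 livers, and 0.0175, 0.102, 0.0181 and 0.00754 at ZT0 (log2 -2.27 ± 0.35 (SE), adjusted p = 1.84e-06). Pygl, the phosphorylase that breaks glycogen down, was higher at ZT0 (0.43).

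All called fatty acid oxidation genes were higher at the end of the fast. In this list 14 of 31 tested members were higher at ZT12 and 0 at ZT0, a share of 45.2%, with a median of -0.25. Cpt1a, the gate for fatty acids into mitochondria, had 84.8, 75.8, 70.8 and 88.9 at ZT0 and 229, 256, 235 and 242 at ZT12 (log2 -1.58 ± 0.14 (SE), adjusted p = 1.73e-12). The 4 livers of each time were tightly grouped. Ppara, the nuclear receptor of the fasting response, was 2.37-fold higher at ZT12 (log2 -1.22 ± 0.14 (SE), adjusted p = 5.64e-09). The isomerase gene Eci2 (-1.29), the carnitine carrier Slc22a5 (-1.24) and Acot2 (-0.71) were called in the same direction. The ω-oxidation genes Cyp4a10 and Cyp4a14, classic PPARα targets, had differences of -0.02 and -0.04 and were not called. Fgf21, the fasting hormone gene, was near 0 at both times, at 0.0438 ± 0.0194 at ZT0 and 0.0462 ± 0.0140 at ZT12, and Igfbp1 spread widely, from 12.7 to 76.5 at ZT0 and from 7.73 to 61.3 at ZT12 (log2 0.26, 95% interval -0.98 to 1.49). Angptl4, a secreted inhibitor of lipoprotein lipase, was higher at ZT12 (-1.61).

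Lipid synthesis genes leaned to ZT0 with wide spread between animals. For de novo lipogenesis 6 of 18 tested members were higher at ZT0 and 0 at ZT12 (median 0.27). Pnpla3, a lipid droplet gene driven by SREBP-1c and ChREBP, was at 12.3 ± 8.32 at ZT0 and 2.79 ± 1.45 at ZT12 (log2 1.71 ± 0.42 (SE), adjusted p = 0.00224), and Acly, which makes cytosolic acetyl-CoA, at 663 ± 298 at ZT0 and 343 ± 112 at ZT12 (log2 0.90), with overlap. Fasn, fatty acid synthase, had 260.2, 481, 821 and 278 at ZT0 and 179.7, 133, 378 and 257 at ZT12. These livers overlapped, and the difference of 0.90 (95% interval 0.14 to 1.66) missed the threshold with adjusted p = 0.0875. It was called with ZT24 in place of ZT0 (log2 1.15, adjusted p = 0.021), without ZT0 replicate 1 and without ZT12 replicate 3. Srebf1 was at 249 ± 93.4 at ZT0 and 197 ± 30.4 at ZT12 (adjusted p = 0.417). Scd1 and Fads2 were not tested because their counts could not be rebuilt. For cholesterol synthesis 6 of 20 tested members were higher at ZT0 and 1 at ZT12 (median 0.44). The mevalonate pathway genes Mvd (1.15), Hmgcs1 (0.92), Pmvk (0.92) and Fdps (0.85) were higher at ZT0. Sqle, squalene epoxidase, was not called (0.63, adjusted p = 0.126). The cholesterol list had 3 calls toward ZT0 without ZT0 replicate 3, 4 with ZT24, and 2 with the values as deposited, each beside 1 toward ZT12.

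Of the SREBP system and its partners, 4 of 11 tested members were higher at ZT12 and 2 at ZT0, but without ZT12 replicate 3 the counts were 2 at ZT12 and 3 at ZT0, and with the 8 libraries alone 1 at each. Insig2, whose product holds SREBPs in the endoplasmic reticulum, had 72.3, 58.1, 67.6 and 52.0 at ZT0 and 13.2, 10.2, 15.5 and 18.6 at ZT12 (log2 2.06 ± 0.20 (SE), adjusted p = 2.67e-11). The 2 sets of livers were far apart. Mylip, a ubiquitin ligase (-0.74), and the sterol carrier Stard4 (-0.53) were higher at ZT12. For triglyceride synthesis, storage and lipolysis 7 of 20 tested members were higher at ZT12 and 1 at ZT0. Lpin1, a phosphatidate phosphatase and coactivator of fasting genes, had 27.0, 27.1, 28.7 and 29.4 at ZT0 and 209, 173, 208 and 241 at ZT12 (log2 -2.84 ± 0.30 (SE), adjusted p = 4e-10). Its relative Lpin2 (-1.68), the lipase gene Pnpla2 (-1.03) and Dgat2 (-0.76) were also higher at ZT12. Agpat2, an acyltransferase of phosphatidate synthesis, was the 1 member higher at ZT0 (1.15).

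**Figure D3:**
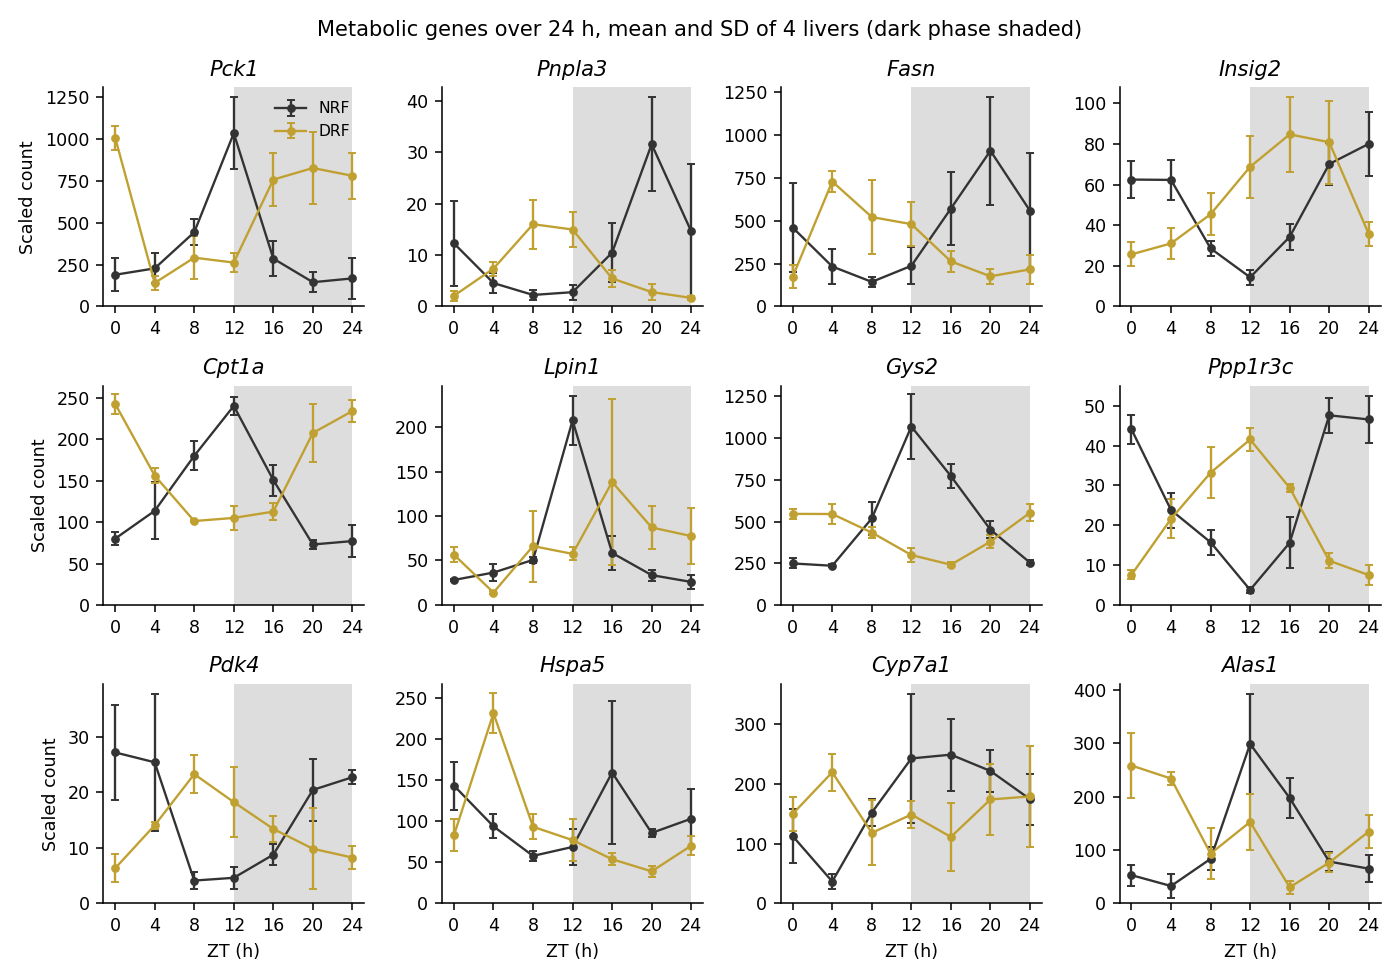
Scaled counts of 12 metabolic genes over 24 h under NRF (dark line) and DRF (yellow line), as mean and SD of 4 livers per point, with ZT in hours on the horizontal axis and the dark phase shaded. Under NRF, Pck1, Cpt1a, Lpin1, Gys2 and Alas1 were highest at ZT12, and Insig2 and Ppp1r3c lowest there, while Hspa5 was highest at ZT16 and Fasn and Pnpla3 at ZT20, between the times compared.

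Of the sterol export and bile acid genes, more were higher at the end of the fast than at the end of feeding. In the list of bile acid synthesis and transport 11 of 23 tested members were higher at ZT12 and 5 at ZT0 (median -0.32). Abcg5 and Abcg8, which together form the canalicular sterol exporter, had log2 differences of -1.80 ± 0.14 (SE), adjusted p = 9.01e-14, and -1.64 ± 0.18 (SE), adjusted p = 1.1e-09. In single livers Abcg5 had 69.0, 78.3, 75.7 and 86.8 at ZT0 and 205, 280.3, 324 and 292 at ZT12. Cyp7a1, the rate-limiting enzyme of bile acid synthesis, had 55.6, 135, 160.5 and 98.8 at ZT0 and 329, 159, 139 and 342 at ZT12. These livers overlapped, and the call (log2 -1.09 ± 0.38 (SE), adjusted p = 0.0338) was lost with the 8 libraries alone, with ZT24 and without any 1 of 4 livers. Hsd3b7 (1.07), Acox2 (0.95) and the bile salt pump Abcb11 (0.58) were higher at ZT0, and Cyp8b1 was at 61.0 ± 5.22 at ZT0 and 45.6 ± 10.6 at ZT12 without a call.

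Heme and drug metabolism genes held some of the larger differences. Alas1, the rate-limiting enzyme of heme synthesis, had 42.1, 57.0, 78.6 and 33.2 at ZT0 and 386, 370.3, 235 and 203 at ZT12 (log2 -2.50 ± 0.37 (SE), adjusted p = 8.42e-07). Por, which passes electrons to all microsomal cytochromes P450, had 67.4, 68.1, 58.1 and 59.8 and 239.9, 258, 236 and 236, a difference with little spread (log2 -1.92 ± 0.11 (SE), adjusted p = 1.88e-18). Of the xenobiotic list 6 of 24 tested members were higher at ZT12 and 4 at ZT0. Cyp2b10, a target of the receptor CAR, was higher at ZT0 (log2 2.58 ± 0.38 (SE), adjusted p = 8.11e-07), whereas Cyp2a5 was higher at ZT12 (log2 -2.01 ± 0.26 (SE), adjusted p = 5.36e-08). Both have close copies in the genome. The receptor genes Nr1i2 (PXR, -0.81), Nr1i3 (CAR, -0.79) and Rxra (-0.64) were higher at ZT12, as was Cyp2e1 (-0.97). In heme synthesis and breakdown 3 of 11 tested members were higher at ZT12 and 1 at ZT0. For NAD 5 of 15 tested members were higher at ZT12 and 0 at ZT0, with Nampt, the rate-limiting enzyme of NAD salvage, at 23.2 ± 2.78 at ZT0 and 59.4 ± 5.68 at ZT12 (log2 -1.32 ± 0.10 (SE), adjusted p = 1.18e-13) and Nmrk1 at -1.51.

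Amino acid transporters were mostly higher at the end of the fast. Here 9 of 16 tested members were higher at ZT12 and 1 at ZT0 (median -0.51). The cationic carrier Slc7a2 had means of 66.4 ± 2.68 at ZT0 and 262 ± 35.4 at ZT12 (log2 -1.96 ± 0.29 (SE), adjusted p = 1.15e-06). Slc1a2, a glutamate carrier of the cells around the central vein, differed by -1.49, and the neutral amino acid carriers Slc38a2, Slc38a3 and Slc38a4 by -1.33, -1.15 and -1.11. Slc1a4, a serine and alanine carrier, was higher at ZT0 (1.49). Enzymes of amino acid breakdown moved in both directions, as 9 of 39 tested members were higher at ZT12 and 7 at ZT0. Acmsd, which diverts tryptophan breakdown from NAD synthesis, had 96.8, 103, 125 and 60.5 at ZT0 and 30.4, 23.7, 23.3 and 30.2 at ZT12 (log2 1.77 ± 0.24 (SE), adjusted p = 1.92e-07). The homocysteine genes Cbs (1.13) and Bhmt (1.01) and the cystathionase gene Cth (0.63) were higher at ZT0. The transaminase Gpt2 (-0.95), serine dehydratase Sds (-0.89) and proline dehydrogenase Prodh (-0.62) were higher at ZT12. With the values as deposited 3 members of this list were higher at ZT0 and 20 at ZT12. In the urea cycle 4 of 11 tested members were higher at ZT12 and 2 at ZT0, with the ornithine carrier Slc25a15 at 0.58 and Arg1 at -0.39. Without ZT0 replicate 1 the calls toward ZT12 were 2.

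Many protein folding and proteasome genes were higher at the end of feeding. For the endoplasmic reticulum (ER) 16 of 24 tested members were higher at ZT0 and 1 at ZT12, 70.8% of the list, with a median of 0.44. Sdf2l1, an ER chaperone subunit, had 14.7, 12.0, 15.8 and 17.4 at ZT0 and 3.90, 3.47, 2.15 and 3.72 at ZT12 (log2 1.90 ± 0.22 (SE), adjusted p = 5.29e-09). Hspa5, the chaperone BiP, had 108, 134, 154 and 177 and 97.5, 71.9, 45.4 and 59.8 (log2 1.08 ± 0.24 (SE), adjusted p = 0.000781). The times did not overlap in either gene, but Hspa5 was not called with ZT24 in place of ZT0. Hyou1 (1.25), Creld2 (1.37), Manf (1.25) and the disulfide isomerase genes Pdia3, Pdia4 and Pdia6 (0.69, 0.76 and 0.91) were called with them. Creld2, like Hspa5, was not called with ZT24 in place of ZT0 (log2 0.77). Herpud1, a factor of ER-associated degradation, went the other way (-1.19), and Xbp1 (-0.07) and Atf6 (-0.18), genes of the transcription factors of this response, were not called. The ER count was 18 and 1 with the length trend removed and 9 and 2 with the values as deposited. Of the cytosolic heat shock list 7 of 19 tested members were higher at ZT0 and 0 at ZT12, among them Hspb1 (1.18), Stip1 (0.93) and Fkbp4 (0.88). Hspe1 had the largest difference there, 2.32, but it has many near-copies and lost its call with ZT24.

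Of the proteasome 13 of 31 tested members were higher at ZT0 and 0 at ZT12 (median 0.23). Psmd14 and Psmd11, regulatory particle subunits, were at 11.2 ± 1.14 at ZT0 and 6.36 ± 0.545 at ZT12 and at 113 ± 13.5 at ZT0 and 68.8 ± 3.38 at ZT12 (log2 0.73 and 0.70). Calls fell on subunits of the regulatory particle, and in the core on Psmb3 (0.24) and Psmb5 (0.30). The counts were the same with the length trend removed, 6 and 0 with the values as deposited, and 7 and 0 with the 8 libraries alone. Autophagy genes leaned to ZT12, where 9 of 28 tested members were higher at ZT12 and 1 at ZT0 (median -0.14). Ulk1, the initiating kinase, was at 32.4 ± 5.57 at ZT0 and 69.0 ± 10.5 at ZT12 (log2 -1.07 ± 0.13 (SE), adjusted p = 1.69e-08), and Bnip3, a mitophagy receptor, differed by -1.52. Sqstm1, the cargo receptor p62, was higher at ZT0 (0.63). In ribosome biogenesis 5 of 30 tested members were higher at ZT12 and 2 at ZT0. That share of 23.3% stood beside 19.7% of all genes and 26.2% of protein-coding genes. In the integrated stress response list 4 of 17 tested members were higher at ZT12 and 3 at ZT0, with Atf5 (1.47) and Cebpb (-1.15) at its ends. Without ZT12 replicate 3 it held 5 calls toward ZT0, and without ZT12 replicate 2 the ribosome biogenesis list held 3 toward ZT12.

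Glucocorticoid response genes were mostly higher at ZT12, near the hour at which corticosterone is known to peak in mice. The hormone is not among the data used here, and a link to it was not tested. In this list 8 of 15 tested members were higher at ZT12 and 2 at ZT0 (median -0.60). Zbtb16 had 138, 87.5, 74.3 and 115 at ZT0 and 463, 267, 315 and 472 at ZT12 (log2 -1.86 ± 0.42 (SE), adjusted p = 0.00087), and the chaperone gene Fkbp5 differed by -1.78. Per1 belongs to this list too. Mt2, a metallothionein, differed by -2.26 with overlapping livers, and 73.5% of its exon bases lie opposite another gene. Cdkn1a, a cell cycle inhibitor, was higher at ZT0 (1.40). In the growth hormone list 3 of 11 tested members were higher at ZT12 and 2 at ZT0, with Stat5a (0.85) and Stat5b (0.51) higher at ZT0 and Cux2 at the other end, and 1 call toward ZT12 without ZT12 replicate 4. Among liver hormones and receptors 3 of 19 tested members were higher at ZT12 and 1 at ZT0. This share of 21.1% was near the 19.7% of all genes and under the 26.2% of protein-coding genes. The leptin receptor gene Lepr was at 21.4 ± 3.0 at ZT0 and 59.8 ± 21.7 at ZT12 (log2 -1.37 ± 0.27 (SE), adjusted p = 0.000139).

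Several groups held few calls. For nuclear-encoded respiratory chain genes 3 of 30 tested members were higher at ZT0 and 1 at ZT12, for apolipoproteins 1 of 19 tested members was higher at ZT0 and 0 at ZT12, and for acute phase proteins 2 of 19 tested members were higher at ZT0 and 2 at ZT12. For immediate early genes 1 of 16 tested members was higher at ZT12 and 0 at ZT0, for cell cycle genes 3 of 26 tested members were higher at ZT12 and 2 at ZT0, and for long noncoding and snoRNA host genes 1 of 12 tested members was higher at ZT12 and 0 at ZT0. The share called was 21.1% in the acute phase list and under the 19.7% of all genes in the other 5. Of protein-coding genes 26.2% were called. With 1 liver left out, the calls toward ZT0 in the respiratory chain list ranged from 0 to 7, with 0 without ZT0 replicate 4 or ZT12 replicate 3 and 7 without ZT12 replicate 2. The apolipoprotein list held 4 without ZT12 replicate 2. Of the cell cycle genes, the cyclin genes Ccne1 (-1.06) and Ccnd1 (-1.0) were higher at ZT12. Of the cold-inducible genes, Rbm3 was higher at ZT12 (-0.76), and Cirbp was at 1.85 ± 0.861 at ZT0 and 2.71 ± 0.955 at ZT12 (adjusted p = 0.15).

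**Figure D4:**
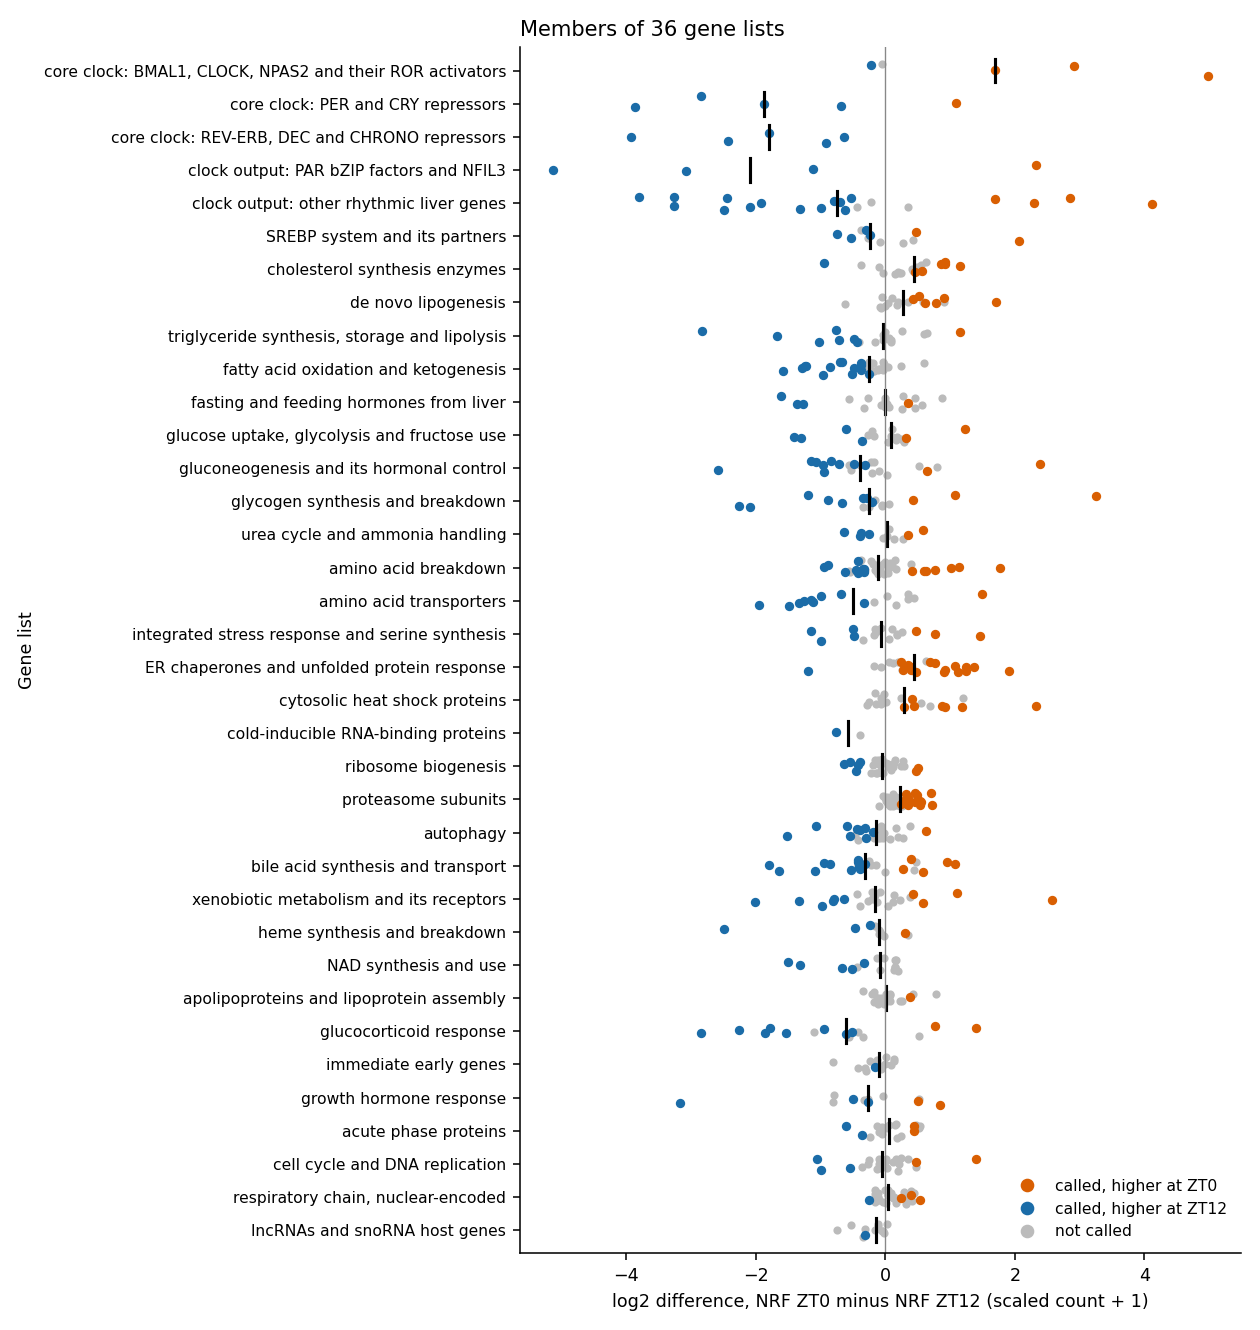
Each row is 1 of 36 gene lists and each dot 1 tested member, placed by its log2 difference between NRF ZT0 and NRF ZT12 (orange, called higher at ZT0; blue, called higher at ZT12; grey, not called), with a bar at the list's median. ER chaperones and proteasome subunits lie to the right, and fatty acid oxidation, amino acid transporters and clock repressors to the left.

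Markers of the cell types of liver were checked beside these differences. Hepatocyte markers were high in all livers, their summed level being 134845 to 145523 at ZT0 and 121872 to 155449 at ZT12, and 0 of 8 tested members were higher at ZT0 and 0 at ZT12. Endothelial markers summed to 582 to 615 at ZT0 and 609 to 635 at ZT12 (2 of 10 tested members were higher at ZT0 and 0 at ZT12), Kupffer cell markers to 765 to 1065 at ZT0 and 885 to 984 at ZT12 (1 of 10 tested members was higher at ZT12 and 0 at ZT0) and stellate cell markers to 723 to 872 at ZT0 and 837 to 939 at ZT12 (2 of 10 tested members were higher at ZT12 and 1 at ZT0). Cholangiocyte markers stood apart, with 7.59 to 11.5 at ZT0 and 4.95 to 6.25 at ZT12 and no overlap, and 3 of 6 tested members were higher at ZT0 and 0 at ZT12: Sox9 (1.04), Krt19 (0.56) and Krt7 (0.32). Krt7 had a difference of -0.000415 with ZT24 in place of ZT0. Lymphocyte (2.14 to 2.83 at ZT0 and 2.15 to 3.49 at ZT12), neutrophil (0.755 to 1.78 at ZT0 and 0.673 to 1.33 at ZT12) and acinar markers (3.41 to 4.40 at ZT0 and 3.32 to 3.63 at ZT12) were low and erythroid markers overlapped (582 to 951 at ZT0 and 501 to 870.2 at ZT12), all without a call. Of 3 adipocyte markers tested, which summed to 859 to 1894 at ZT0 and 530.1 to 831 at ZT12, Car3, which hepatocytes also express, was higher at ZT0 (0.94), while Adipoq, Plin1 and Retn are not in the list of tested genes. The part of these markers in the other results was not tested.

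Day-fed livers gave the same comparison with food and light paired the other way. For DRF, the end of feeding minus the end of the fast is ZT12 minus ZT0, and 4516 genes (17.9%) were called. Of the 4973 genes called under NRF, 1917 were called under DRF too, 1703 with the same sign and 214 with the opposite sign relative to food. The difference between the regimens, tested itself as an interaction, was called in 2621 genes (10.4%), with NRF above DRF in 1354 (5.36%) and below in 1267 (5.01%). Its count moved with the setting. With the length trend removed it was called in 2480 genes, 1234 above and 1246 below, and 2039 of these were shared with the main fit. Under DRF the length index was -0.196 to -0.064 at ZT0 and 0.099 to 0.176 at ZT12. It was thus higher at ZT12 under DRF too, which relative to food is opposite to NRF. The part of this trend in the interaction of single genes was not tested. The interaction was called in 1432 genes when only the groups compared were fitted, in 1701 without NRF ZT12 replicate 4 and in 3967 with the values as deposited, where NRF was above DRF in 19.5% of calls rather than 51.7%. With ZT24 in place of ZT0 in both regimens, which keeps the ZT12 livers, it was called in 2479 genes, and 689 genes were called at both hours.

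Clock genes kept their direction relative to food, most with smaller differences under DRF. Of the 19 clock and PAR bZIP genes 17 were called under DRF, all with the same sign as under NRF, and the interaction was called in 8, of which 7 had the same sign and a wider difference under NRF. Arntl differed by 4.99 under NRF and 2.91 under DRF, an interaction of 2.08 (adjusted p = 1.36e-06). Nr1d2 differed by -3.93 under NRF and -2.05 under DRF (adjusted p = 7.86e-07) and Dbp by -5.14 under NRF and -3.53 under DRF (adjusted p = 0.000352). For Clock (1.69 under NRF and 1.5 under DRF), Nfil3 (2.32 under NRF and 2.13 under DRF) and Nr1d1 (-2.43 under NRF and -2.15 under DRF) no difference between regimens was called, with 95% intervals of -0.26 to 0.63, -0.28 to 0.65 and -1.17 to 0.60. The 20 genes with the largest differences were all called under DRF in the same direction relative to food, and the interaction was called in 7 of the 10 toward ZT0 and 8 of the 10 toward ZT12, each with the wider difference under NRF. These 20 genes were chosen by their NRF difference, which the interaction contains, so this count is a description.

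Metabolic genes split. Pck1 (-2.58 under NRF and -1.96 under DRF), Cpt1a (-1.58 under NRF and -1.21 under DRF), Ppara (-1.22 under NRF and -1.12 under DRF), Insig2 (2.06 under NRF and 1.39 under DRF) and Pdk4 (2.38 under NRF and 1.38 under DRF) had the same sign in both regimens, and their interactions were not called (adjusted p = 0.519, 0.24, 0.852, 0.112 and 0.172). These genes do not stand for their lists. Of 31 tested fatty acid oxidation members, 4 were called higher at the end of the fast and 2 at the end of feeding under DRF. The median of that list under DRF was -0.11, and 6 members had a called interaction. Lpin1 differed by -2.84 under NRF and 0.03 under DRF (adjusted p = 1.56e-05), Gys2 by -2.09 under NRF and -0.88 under DRF (adjusted p = 2.96e-06) and Alas1 by -2.50 under NRF and -0.80 under DRF (adjusted p = 0.0263). Lpin1 had a difference near 0 under DRF at these 2 times, where it was at 56.5 ± 8.37 at ZT0 and 57.5 ± 7.21 at ZT12. Hspa5 (1.08 under NRF and -0.13 under DRF), Bhmt (1.01 under NRF and -0.37 under DRF) and Acmsd (1.77 under NRF and -0.10 under DRF) also had a called interaction, that of Hspa5 not with ZT24 in place of ZT0 in both regimens. In the proteasome list no member had one (0 of 31), and 12 were called higher at the end of feeding under DRF. Over all genes the interaction was called in 10.4% and the DRF difference in 17.9%.

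Of the 6 genes chosen for the smallest p of the interaction, 3 in each direction, Arntl had the same sign in both regimens and the other 5 had opposite signs relative to food. Eln, the elastin gene, had 15.4, 20.7, 17.1 and 16.9 at ZT0 and 4.96, 6.10, 4.36 and 6.39 at ZT12 under NRF (log2 1.53 ± 0.14 (SE), adjusted p = 2.67e-11), and it differed by -0.59 under DRF (interaction adjusted p = 2.13e-09). Ngfr, a neurotrophin receptor gene listed as a stellate cell marker, differed by 1.16 under NRF and -0.53 under DRF. Timp3, an inhibitor of matrix proteases, had 13.7, 14.6, 16.6 and 14.9 and 26.1, 30.2, 33.5 and 32.5 under NRF and differed by -0.98 under NRF and 0.54 under DRF (interaction adjusted p = 6.1e-13). Prex2, an exchange factor for RAC, and Ccbe1, a secreted matrix protein of lymphatic growth, differed by -0.64 under NRF and 0.57 under DRF, and by -0.64 under NRF and 0.62 under DRF. In hours of the light cycle, each of these 5 genes was higher at the same ZT in both regimens. Zbtb16 (-1.86 under NRF and 0.88 under DRF) and Ccnd1 (-1.0 under NRF and 0.73 under DRF) had a called interaction too, but no call under DRF. Since Eln, Ngfr, Timp3, Prex2 and Ccbe1 were chosen by their interaction, these values describe them and support nothing further.

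**Figure D5:**
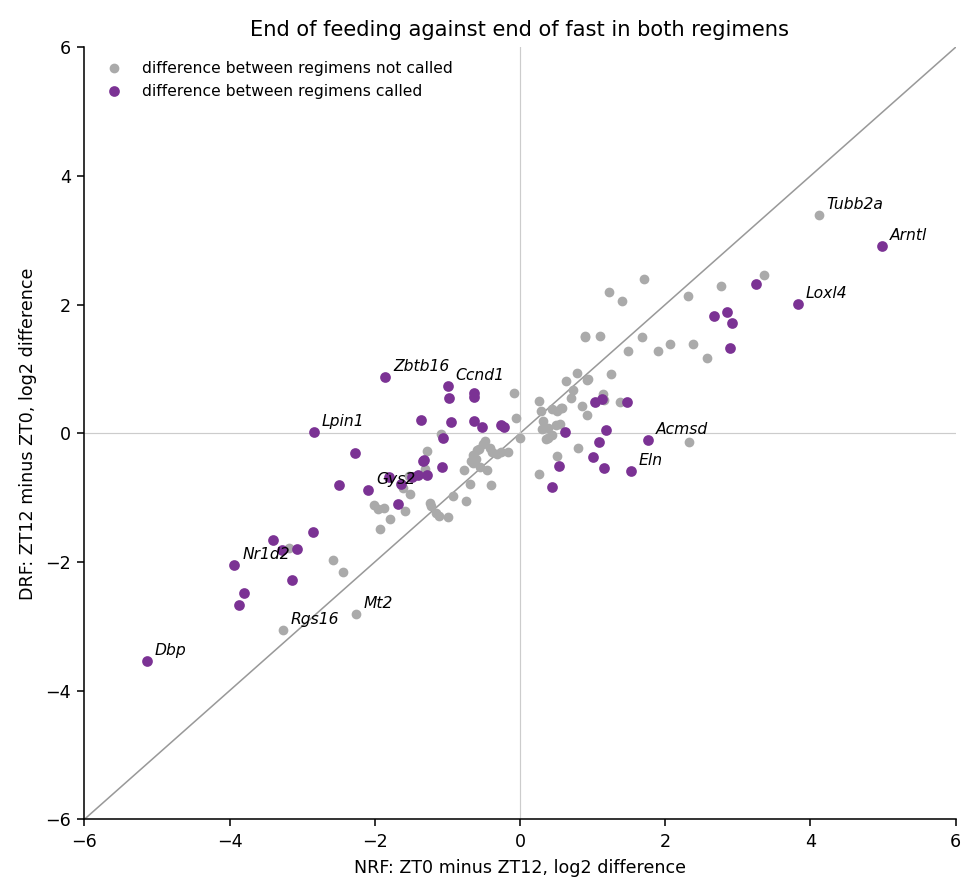
Each dot is 1 of 144 named genes, with the log2 difference between the end of feeding and the end of the fast under NRF (horizontal axis, ZT0 minus ZT12) and under DRF (vertical axis, ZT12 minus ZT0), and the diagonal marks equal differences. Purple dots (53 genes) had a called difference between regimens, and Arntl, Dbp and Nr1d2 lie nearer to 0 on the vertical than on the horizontal axis.

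Circular RNAs, which are closed by a back-splice and counted by reads across that junction, gave little at this depth. Junction reads numbered 7421 to 15315 per library, which left 1131 circRNAs of 2352 for the test. The circRNA novel_circ_0011461 was called, 0.0884% of those tested (limma, adjusted p = 0.000173), with 4, 17, 13 and 3 reads at ZT0 and 0, 13, 0 and 0 at ZT12. A single ZT12 liver lay within the ZT0 range. The call was lost when only the 8 libraries were fitted. A filter for circRNAs above 0 in all 8 leaves this one out before the test, because of its ZT12 livers at 0, so it says nothing about the call. An unadjusted p below 0.05 (limma) was reached by 109 circRNAs, 94 of them higher at ZT0. By chance a share of 0.05 of the 1131 tests is expected to do so. The shallowest libraries were both from ZT12, replicate 3 with 7884 junction reads and replicate 4 with 7421, against 8276 to 14765 at ZT0. The part of depth in this lean was not tested.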

How the data were processed

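Livers were profiled by strand-specific RNA sequencing after removal of ribosomal RNA. Per the submitters' processing notes, CASAVA 1.8 and featureCounts 1.5.0-p3 were used with mm10 and GRCm38.p6; the aligner, and whether counting used strand, are not given in the sources used here. The deposited gene values, named TPM by the authors, are on no linear scale and are treated as a score. Multiplied by exon length (GENCODE vM21, from the reference given), they are a logarithm of whole counts, so counts were rebuilt for 25269 of 25415 genes and scaled per library. Rebuilt values lay within 0.1 of a whole number in 97.8% of cases for counts of up to 100 and in 90.1% for the deepest range judged, against 20% by chance. Deposited circRNA values are log2(1 + scaled junction reads), as made by the authors. The transcript table was not used.

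limma 3.58.1 (R 4.3.3, trended and robust) was fitted to log2(scaled count + 1) over 56 libraries with 14 group means, with Benjamini-Hochberg adjustment and an adjusted p threshold of 0.05. On simulated data 90% of 2-fold and 100% of 4-fold changes were recovered, with 11 false calls of 25269 genes. The changes were set only in genes with a mean scaled count of at least 5. No length trend or other difference between groups was simulated, so these are not error rates of the real calls. Python 3.11.15 and scipy 1.17.1 were used for the rest.

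Members and gene lists were chosen with earlier results of these data known. Named genes were 26 fixed genes, 19 clock genes, the 10 protein-coding genes highest in each direction without overlap and with a mean of at least 5, up to 3 called members per list with the largest differences, and the 3 with the smallest interaction p in each direction. Other list members are given by their log2 difference only. For 11 named genes over 10% of exon bases lie opposite another gene, and genes with near-identical copies are uncertain. Some named genes and list members are not reported here.

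Alternatives were the deposited values, a pseudocount of 0.1, a mean of at least 1, median-of-ratios scaling, removal of the length trend, the compared groups only, a replicate block, limma without trend, ZT24 for ZT0, and each liver left out. The comparison of ZT24 with ZT0 was added after seeing the data.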

Additional observations from a re-analysis of the deposited data

Results flagged for a closer look

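In 14 of 288 groups of 4 livers checked (4.86%, 2 groups for each of 144 named genes), 1 liver stood apart from the other 3 by Dixon's test at the 95% level. Chance alone does so in about 1 group in 20, and the genes are not independent. In scaled counts, the livers that stood apart at ZT0 were replicate 1 for Npas2 (5.84) and Cldn1 (84.4), replicate 2 for Ppp1r3g (0.102) and Fech (41.9), replicate 3 for Hlf (38.6) and Slc25a15 (322), and replicate 4 for Mylip (15.5) and Lepr (25.9). At ZT12 they were replicate 2 for Tubb2b (0.440), Mylip (25.1), Angptl4 (22) and Cebpb (56), and replicate 4 for Eci2 (34.9) and Ulk1 (53.2).

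In 53 of the 144 named genes the difference between the end of feeding and the end of the fast was not the same in the 2 regimens (limma interaction, adjusted p below 0.05). Values, given for 52 of them, are the NRF log2 difference minus the DRF log2 difference. Among clock genes and the genes with the largest NRF differences they were Arntl 2.08, Npas2 1.2, Rora -0.32, Per1 -1.31, Per3 -1.2, Nr1d2 -1.88, Dbp -1.61 and Tef -1.27, and Usp2 -1.32, Mfsd2a -1.73, Upp2 -1.46, Gpcpd1 -0.87, Cldn1 0.86, Ddc 0.96, Atp2b2 1.57, Ppp1r3c 0.93 and Loxl4 1.82. In lipid, sterol and bile acid genes they were Cyp8b1 1.28, Lpin1 -2.86, Lpin2 -0.58, Stard4 -0.62, Eci2 -0.64, Abcg5 -1.13 and Abcg8 -0.84. In glucose, glycogen, heme, NAD and drug metabolism and hormone receptors they were Slc2a2 -0.76, Ppp1r3g -1.96, Gys2 -1.21, Alas1 -1.70, Nampt -0.91, Gstt2 -0.90, Lepr -1.58 and Zbtb16 -2.73. In amino acid genes and those of protein folding, stress, autophagy and ribosome biogenesis they were Acmsd 1.87, Cbs 0.60, Bhmt 1.38, Slc1a2 -0.80, Atf5 0.98, Hspa5 1.21, Hspb1 1.13, Ulk1 -0.55, Sqstm1 0.61 and Rrn3 -0.83. In cell cycle, respiratory chain, marker and matrix genes they were Ccne1 -0.99, Ccnd1 -1.73, Ndufa4 1.05, Ndufs1 -0.39, Ngfr 1.70, Sox9 0.55, Eln 2.12, Timp3 -1.53, Prex2 -1.21 and Ccbe1 -1.26. With ZT24 in place of ZT0 in both regimens, 41 of the 53 were called, and Lepr changed sign (0.12, not called). Eln, Ngfr, Timp3, Prex2 and Ccbe1 were chosen by this interaction.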

How the results depend on the processing

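Counts of genes higher and lower in NRF ZT0 than ZT12 (2473 and 2500) were 1617 and 3574 with the deposited values, and 1247 and 1226, 2473 in all, when only the 8 libraries were fitted. Leaving out 1 liver gave 4132 to 4917 calls, 2012 to 2555 higher and 2120 to 2535 lower. The regimen difference (1354 above, 1267 below) gave 773 and 3194, 3967 in all, with the deposited values, and 754 and 678, 1432 in all, with the groups compared only. Leaving out 1 liver gave 1701 to 3404 calls, 852 to 1823 above and 849 to 1581 below, with the fewest without NRF ZT12 replicate 4. For circRNAs (1 called) the count was 0 for those above 0 in all 8 libraries, a filter that leaves the called one untested. It was 0 with the 8 libraries alone, 3 with ZT24, and 1 to 8 with 1 liver left out, 8 without NRF ZT12 replicate 2. With ZT24 in place of ZT0 the sign changed for Apoc3 (-0.20) and Krt7 (-0.000415). Of 131 named genes called, 92 were called under all 17 alternatives, and fitting only the 8 libraries lost most calls (31). The replicate numbers do not pair the livers (correlations of their deviations 0.19, 0.03, 0.04 and -0.06, with 1 of 4 numbers closest to itself). With the replicate block, counts were 4991, 2618 and 1, and G6pc was the only named gene whose call changed. Another normalization by median of ratios, a pseudocount of 0.1 and a filter at a mean of 1 gave 4975, 4993 and 4454 calls. The cause of these changes was not tested. Low genes and circRNAs are limited by their few counts.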

Other observations

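By gene type, the calls between NRF ZT0 and ZT12 were not split alike. Of 15084 protein-coding genes 26.2% were called, 1749 higher at ZT0 and 2199 higher at ZT12. Of 3511 long noncoding genes 15.3% were called, 395 higher at ZT0 and 143 higher at ZT12. Pseudogenes (131 and 64 of 2450) and loci assembled by the authors outside the annotation (106 and 64 of 1059) also had more calls at ZT0. With the length trend removed the long noncoding counts were 346 and 171 and the protein-coding counts 1995 and 2133, and with the deposited values they were 298 and 168, and 1011 and 3212.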
